A study of Mus musculus with 6 samples.

Results

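A set of 10 genes of store-operated calcium entry and of calcium release through inositol trisphosphate (IP3) receptors was followed in unstimulated regulatory T cells (Treg). They were the calcium sensors Stim1 and Stim2, the channel pores Orai1, Orai2 and Orai3, the regulators Saraf and Cracr2a, and the IP3 receptors Itpr1, Itpr2 and Itpr3. Each was found by its exact symbol in the count files, so all 10 of 10 were present among the 23282 entries of a file. The cells were sorted by flow cytometry from spleens of C57BL/6 mice, and 3 libraries came from mice labelled IPMK cKO and 3 from wild type mice. IPMK, inositol polyphosphate multikinase, adds phosphate groups to soluble inositol phosphates and to membrane phosphoinositides. The study asked how its loss changes the Treg transcriptome, and its title links effector Treg to inositol polyphosphates and calcium influx. The labels do not state the allele, the Cre driver, the age of the mice, the sorting markers or the number of mice behind each library. The libraries are called biological replicates, but separate animals are not stated, so each p-value reflects the spread between these libraries, which may be partly technical.

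When a T cell receptor is engaged, phospholipase C cleaves a membrane lipid to IP3, and IP3 receptors then release calcium from the endoplasmic reticulum. STIM proteins span the membrane of the endoplasmic reticulum, sense the fall in stored calcium, move to sites next to the plasma membrane and open ORAI channels there. The calcium that enters activates calcineurin and NFAT, which Treg use in their development and suppressive function. Because IP3 is a substrate of inositol phosphate kinases, including IPMK, these genes stand close to the enzyme that the label IPMK cKO names.

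The QuantSeq kit used here reads tags from the 3′ ends of polyadenylated transcripts, so a transcript gives tags at its end whatever its length, and levels of different genes were compared without division by length, in CPM, a gene's count set against the TMM-scaled size of its library. Total counts were 8363324 to 8980395 in the IPMK cKO libraries and 7464546 to 8246993 in the wild type libraries, and the ribosomal RNA precursor Rn45s took 19.9% to 32.1% and 16.7% to 31.7% of them. IPMK cKO replicate 1 had the lowest correlations across genes, at 0.659 to 0.731 with the other 5 libraries, against 0.710 to 0.866 among those 5. The ranges overlapped, since IPMK cKO replicate 3 and wild type replicate 1 correlated at 0.710. Ipmk itself was at 0.422, 2.74 and 0 CPM in IPMK cKO replicates 1 to 3 and at 15.5, 10.5 and 10.3 CPM in wild type. Markers of Treg and CD4 T cells summed to 4002 to 4688 CPM in IPMK cKO and 4445 to 4995 CPM in wild type libraries, with Ikzf2 the most abundant. Marker sums of B cells (39.7 to 76.1 against 28.9 to 63.0 CPM, led by Cd74), of CD8 T and NK cells (34.1 to 76.4 against 31.8 to 43.3 CPM, led by Nkg7), of myeloid cells (0.141 to 26.4 against 1.20 to 18.9 CPM, led by Tyrobp) and of red cells and platelets (1.41 to 20.5 against 0.120 to 64.0 CPM, led by Hba-a1) overlapped between the groups. In both groups the library numbered 1 had the lowest myeloid sum, at 0.141 CPM in IPMK cKO and 1.20 CPM in wild type. Those libraries also had the lowest red cell and platelet sums, at 1.41 and 0.120 CPM, and no count of Tyrobp. This pattern was picked out after the data were seen, and its reason was not tested. Cd8a and Cd14 had no count in any library.

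Of the 10 genes, 9 passed the filter on low counts and Cracr2a did not. With edgeR and a threshold of 0.05 on the adjusted p, 0 of the 9 were called, where 0% of all 10475 genes tested were called. Ipmk itself was not called either, at a log2 fold change of −3.51 (SE 1.75, edgeR unadjusted p = 0.0705 and adjusted p = 0.9999). At an unadjusted edgeR p under 0.05 there were again 0 of 9, against 2.56% of all genes, and DESeq2, which called 0.0283% of the genes it adjusted, and limma-voom called 0 of the 9. By estimate, 6 lay above 0 and 3 below, against 51.8% of all genes above 0, and their median log2 fold change was +0.38 against +0.03 over all genes tested. For Itpr2 and Itpr3 all IPMK cKO libraries lay above all wild type libraries, which was so for 4.74% of all genes tested, and no member lay below in every IPMK cKO library (5.66% of all genes). Groups without overlap in either direction thus made up 2 of 9 members and 10.4% of all genes tested. In bulk RNA, fewer cells that express a gene and less RNA per cell cannot be told apart.

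**Figure D1:**
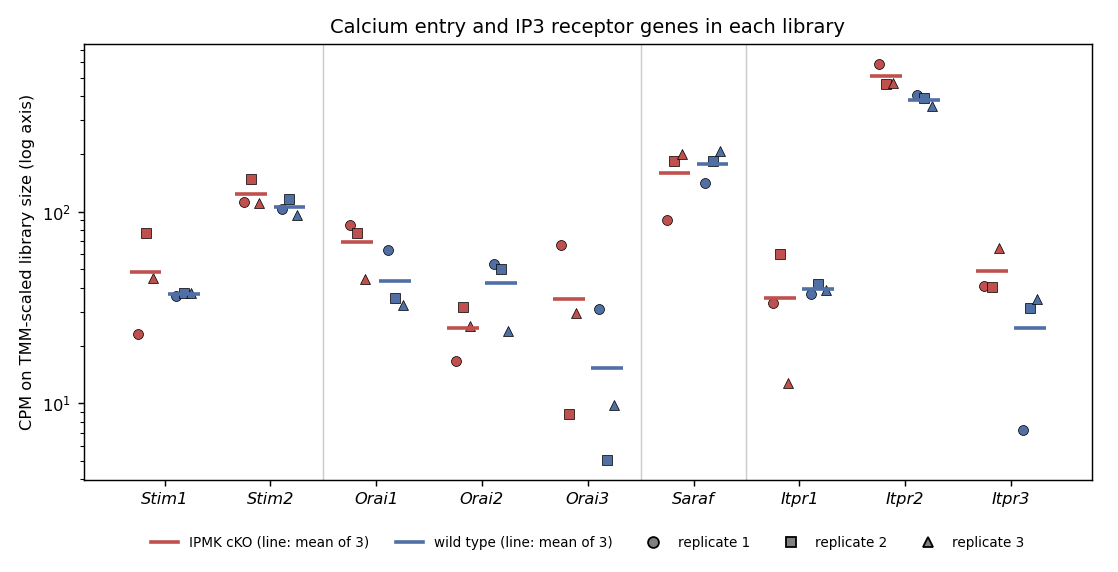
Level of the 9 detected genes in each library, in CPM on TMM-scaled library sizes (log axis), with IPMK cKO left of wild type, a symbol per replicate number and a line at the mean of 3. Itpr2 is the highest gene in every library, and Orai3 has the widest spread within both groups.

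The levels spanned a wide range. Itpr2 was the most abundant of the set by far, at 508 ± 71.7 CPM in IPMK cKO and 383 ± 26.5 CPM in wild type (SD, n = 3 each), above 98.2% and 97.6% of all genes tested. Saraf, which turns store-operated entry off after refilling, came next at 158 ± 59.4 and 177 ± 33.4 CPM, and then Stim2 at 123 ± 21.0 and 105 ± 10.6 CPM. In wild type these 3 ranges were separate, whereas in IPMK cKO those of Saraf and Stim2 overlapped. The other 6 detected genes averaged 24.6 to 69.1 CPM in IPMK cKO and 15.3 to 43.5 CPM in wild type. Orai1 led them in both groups. Below it the ranges of neighbours in the order overlapped in IPMK cKO down to Orai2, and in wild type they overlapped except between Stim1 (36.5 to 37.7 CPM) and Itpr3 (7.22 to 35.1 CPM).

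STIM1 is the main sensor that drives ORAI1 when stores are emptied strongly, and STIM2 responds to smaller losses and holds resting calcium. Stim1 (chromosome 7, 102267806 to 102437319, plus strand of mm10) was at 22.9, 77.0 and 45.2 CPM in IPMK cKO replicates 1 to 3 and at 36.5, 37.7 and 37.7 CPM in wild type. The wild type libraries were nearly equal, while the IPMK cKO libraries lay on both sides of them and spanned 3.36-fold. The log2 fold change was +0.38 (SE 0.49, 95% interval −0.71 to 1.47, edgeR adjusted p = 0.9999), and it was −0.15 without IPMK cKO replicate 2. Stim2 (chromosome 5, 53998499 to 54121057, plus strand) was at 112, 147 and 111 CPM in IPMK cKO and at 104, 117 and 95.8 CPM in wild type. These groups overlapped, and the log2 fold change was +0.22 (SE 0.30, interval −0.43 to 0.88), and it was +0.047 without IPMK cKO replicate 2.

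Stim2 made up most STIM tags in every library. Its share of the 2 genes' counts was 82.9%, 65.7% and 71.0% in IPMK cKO and 74.0%, 75.6% and 71.8% in wild type. Counting error alone gives exact 95% binomial intervals of 80.4% to 85.3%, 63.4% to 67.9% and 68.6% to 73.3% for the IPMK cKO shares. The reads carry no stated molecular identifiers and need not be independent molecules, so such intervals cover counting error only. These 3 intervals did not overlap, and the wild type range lay inside that of the IPMK cKO shares. The mean Stim1 share was 26.8% ± 8.84 in IPMK cKO and 26.2% ± 1.91 in wild type (SD, n = 3 each, exact permutation test, two-sided p = 0.9). In all, 13 values per library, 7 paralog shares, 4 sums and 2 ratios, were compared in this way, the smallest p that 3 against 3 libraries allow is 0.1, and the adjusted p of the Stim1 share was 0.975.

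ORAI1 forms the pore of the channel that carries store-operated current in T cells, and ORAI2 and ORAI3 can join it in mixed channels. ORAI2 in mouse T cells lowers the current of channels it joins. Orai1 (chromosome 5, 123015074 to 123030456, plus strand) was at 85.6, 77.1 and 44.8 CPM in IPMK cKO and at 62.7, 35.3 and 32.7 CPM in wild type. In 2 of 3 IPMK cKO libraries it lay above every wild type library, and the third lay inside the wild type range. The log2 fold change was +0.67 (SE 0.43, 95% interval −0.28 to 1.61, edgeR adjusted p = 0.9999), and it ranged from +0.48 without IPMK cKO replicate 1 to +1.02 without wild type replicate 1.

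Orai2 (chromosome 5, 136147459 to 136170713, minus strand) was at 16.6, 31.7 and 25.4 CPM in IPMK cKO and at 53.2, 49.9 and 23.9 CPM in wild type. The groups overlapped through wild type replicate 3, the lowest of its group. Its log2 fold change was −0.78 (SE 0.52, interval −1.93 to 0.37, edgeR adjusted p = 0.9999). Orai3 (chromosome 7, 127769815 to 127775150, plus strand) was at 66.7, 8.75 and 29.7 CPM in IPMK cKO and at 30.9, 5.06 and 9.78 CPM in wild type. It spanned 7.62-fold within IPMK cKO and 6.12-fold within wild type, the widest of the 9 genes in each group, and in both groups replicate 1 was the highest and replicate 2 the lowest. Its log2 fold change of +1.20 (SE 0.86, interval −0.69 to 3.09) was +0.33 without IPMK cKO replicate 1 and +2.23 without wild type replicate 1.

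The split of ORAI tags between paralogs separated the groups for Orai2. Orai2 made up 9.83%, 27.0% and 25.4% of ORAI counts in IPMK cKO replicates 1 to 3 and 36.2%, 55.3% and 36.1% in wild type, so every IPMK cKO share lay below every wild type share. The means were 20.7% ± 9.48 in IPMK cKO and 42.5% ± 11.1 in wild type, a difference of −21.8 percentage points (SD, n = 3 each, exact permutation p = 0.1, adjusted p = 0.433 over the 13 values). The exact 95% binomial intervals nearest to each other were 24.1% to 30.0% in IPMK cKO replicate 2 and 32.3% to 39.9% in wild type replicate 3. With Orai3 left out, Orai2 was 16.3%, 29.2% and 36.2% of Orai1 and Orai2 counts in IPMK cKO and 45.9%, 58.6% and 42.3% in wild type. Expressed as a ratio, there were 5.15, 2.43 and 1.76 Orai1 tags per Orai2 tag in IPMK cKO and 1.18, 0.707 and 1.37 in wild type. This setting without Orai3 was chosen after the data were seen. Without IPMK cKO replicate 1, the library with the lowest correlations and the lowest share, the difference was −16.3 points, and without wild type replicate 2, which had the highest, −15.4 points.

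Orai1 made up 50.7%, 65.6% and 44.8% of ORAI counts in IPMK cKO and 42.7%, 39.1% and 49.2% in wild type, with overlap (exact permutation p = 0.2). Orai3 made up 39.5%, 7.44% and 29.8% in IPMK cKO and 21.1%, 5.61% and 14.7% in wild type, also with overlap (exact p = 0.3). Orai1 was the leading paralog in all 3 IPMK cKO libraries and in 2 of 3 wild type libraries, and Orai2 led in wild type replicate 2. The summed ORAI level was 129 ± 35.8 CPM in IPMK cKO and 101 ± 41.3 CPM in wild type (SD, n = 3 each, exact permutation p = 0.4). The difference of 27.7 CPM was 7.61 without IPMK cKO replicate 1, 10.3 without wild type replicate 3 and 50.5 without wild type replicate 1. Per STIM tag, the log2 ratio of ORAI to STIM counts was −0.41 ± 0.66 in IPMK cKO and −0.57 ± 0.57 in wild type (exact p = 0.6), and its difference changed sign without IPMK cKO replicate 1 and without wild type replicate 3.

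**Figure D2:**
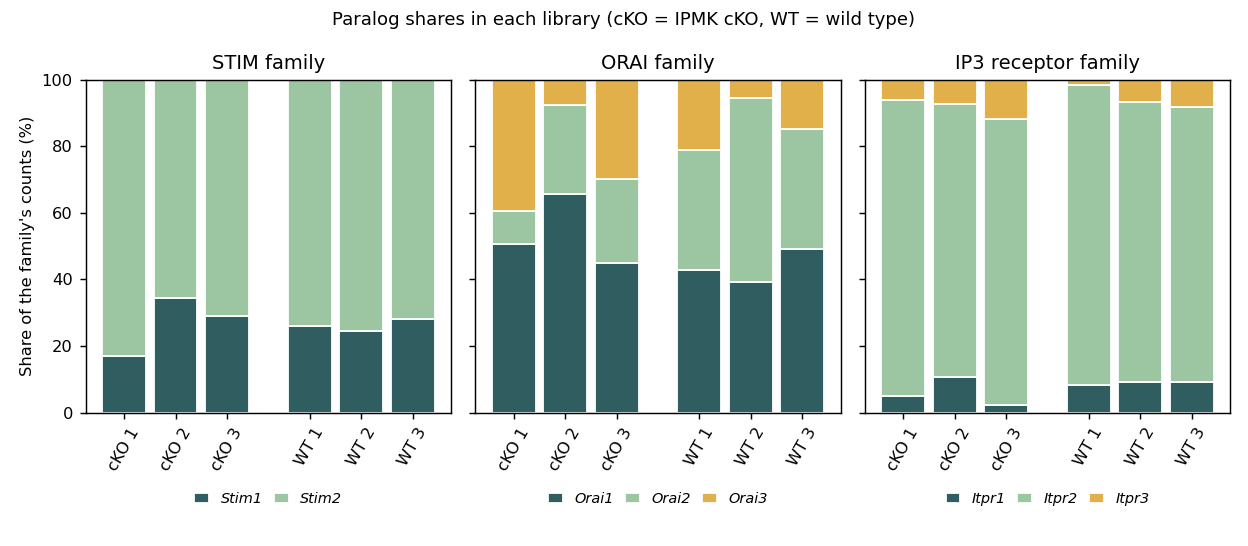
Share of each paralog in its family's counts (%), 1 bar per library, IPMK cKO left of wild type. Orai2 takes 9.83% to 27.0% of ORAI counts in IPMK cKO and 36.1% to 55.3% in wild type, while Stim2 and Itpr2 take most of their families in all 6 libraries.

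Saraf (chromosome 8, 34154575 to 34170821, plus strand), a protein of the endoplasmic reticulum that binds STIM1 and slows calcium entry, was at 90.2, 184 and 200.4 CPM in IPMK cKO and at 141, 184 and 207 CPM in wild type. IPMK cKO replicate 1 was the lowest library, and the other 2 lay within the wild type range. For Saraf the log2 fold change was −0.16 (SE 0.35, interval −0.94 to 0.61), and it was +0.11 without IPMK cKO replicate 1. Cracr2a (chromosome 6, 127561338 to 127674248, plus strand), a calcium-binding protein that stabilises the STIM1 and ORAI1 complex in human T cells, had 0 counts in all 6 libraries. A count of 0 allows up to 0.304 to 0.422 CPM in the IPMK cKO libraries and 0.312 to 0.410 CPM in the wild type libraries (3 counts each, counting error only), so no difference in Cracr2a was detectable at this depth.

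IP3 receptors are tetramers in the membrane of the endoplasmic reticulum, and the 3 subtypes differ in their affinity for IP3 and in their control by calcium. IP3 receptor RNA in each of the IPMK cKO libraries exceeded that in all wild type libraries. The 3 genes summed to 665, 564 and 547 CPM in IPMK cKO replicates 1 to 3 and to 450.5, 463 and 428 CPM in wild type. The means were 592 ± 63.7 CPM in IPMK cKO and 447 ± 17.6 CPM in wild type, a ratio of 1.32 (SD, n = 3 each, exact permutation p = 0.1, adjusted p = 0.433). The groups did not overlap under any of 4 scalings. With counts outside Rn45s as the library size, the sums were 766, 761 and 756 in IPMK cKO and 635, 641 and 599.8 CPM in wild type, a ratio of 1.22. As CPM of all counts they were 526, 517 and 606 in IPMK cKO and 502, 438 and 499 in wild type, a ratio of 1.15, a scaling under which the median log2 ratio of all genes tested was −0.16.

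Most of this was Itpr2. Itpr2 (chromosome 6, 146108299 to 146502223, minus strand), which encodes the subtype with the highest affinity for IP3, was at 591, 464 and 469.6 CPM in IPMK cKO and at 406, 389.6 and 354 CPM in wild type. All IPMK cKO libraries lay above all wild type libraries on this scale, and IPMK cKO replicate 1 was the highest. The log2 fold change was +0.41 (SE 0.25, 95% interval −0.15 to 0.96, edgeR adjusted p = 0.9999), with estimates of +0.28 to +0.46 over the 14 alternative settings. As CPM of all counts the groups overlapped, with 467, 424 and 520.1 in IPMK cKO and 452, 368 and 413 in wild type.

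Itpr3 (chromosome 17, 27057304 to 27122223, plus strand), the subtype with the lowest affinity for IP3, was at 41.1, 40.5 and 64.8 CPM in IPMK cKO and at 7.22, 31.6 and 35.1 CPM in wild type. The groups did not overlap, but the gap was small apart from wild type replicate 1. The log2 fold change was +0.99 (SE 0.60, interval −0.34 to 2.31, edgeR adjusted p = 0.9999) and +0.55 without that library. With counts outside Rn45s or all counts as the library size, IPMK cKO and wild type overlapped for Itpr3. Itpr1 (chromosome 6, 108213096 to 108551109, plus strand), the subtype best known from neurons, was at 33.3, 60.4 and 12.7 CPM in IPMK cKO and at 37.2, 42.0 and 39.0 CPM in wild type. As for Stim1, the wild type libraries were close to each other (1.13-fold range) and the IPMK cKO libraries lay on both sides of them (4.76-fold). The log2 fold change was −0.15 (SE 0.57, interval −1.40 to 1.09), and it was +0.25 without IPMK cKO replicate 3. A larger coefficient of variation in IPMK cKO than in wild type was found for 5 of the 9 genes and for 69.1% of the 10457 tested genes that had one in both groups.

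Itpr2 held 88.8%, 82.1% and 85.8% of IP3 receptor counts in IPMK cKO and 90.1%, 84.1% and 82.7% in wild type. The mean shares of 85.6% ± 3.35 in IPMK cKO and 85.7% ± 3.95 in wild type overlapped widely (SD, n = 3 each, exact permutation p = 1). Itpr3 held 6.18%, 7.18% and 11.9% in IPMK cKO and 1.60%, 6.82% and 8.18% in wild type (exact p = 0.5), and Itpr1 held 5.01%, 10.7% and 2.32% in IPMK cKO and 8.25%, 9.06% and 9.11% in wild type (exact p = 0.4). The log2 ratio of IP3 receptor to STIM counts was 1.82 ± 0.49 in IPMK cKO and 1.65 ± 0.06 in wild type (SD, n = 3 each, exact permutation p = 0.7).

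**Figure D3:**
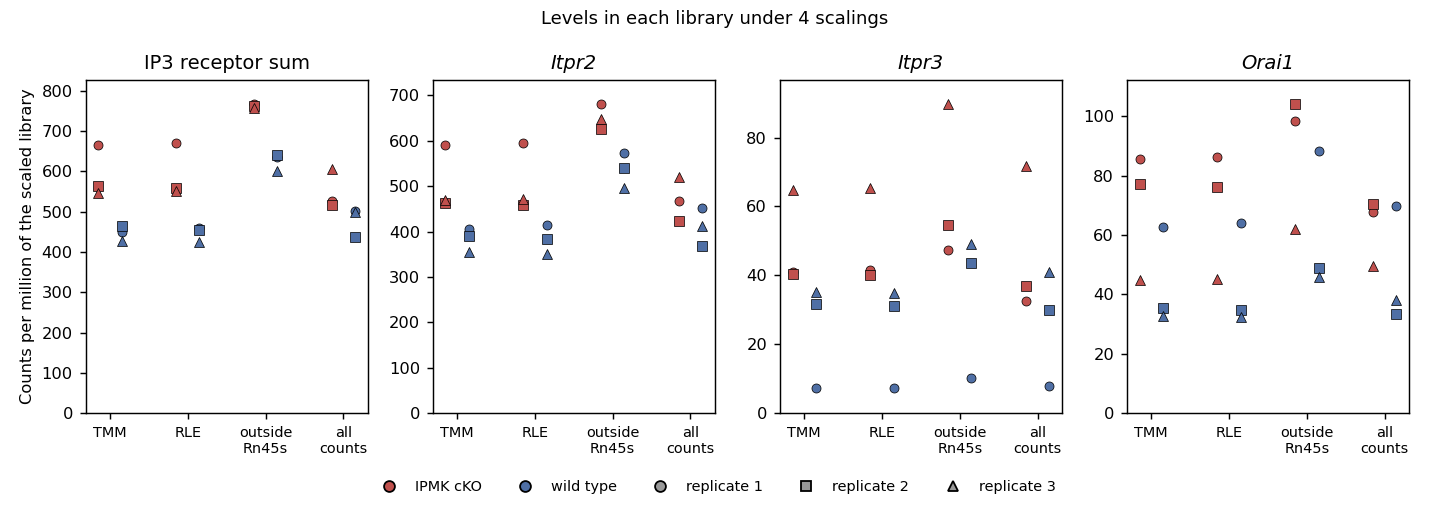
Levels of the IP3 receptor sum, Itpr2, Itpr3 and Orai1 in each library under 4 scalings, in CPM of the scaled library, with IPMK cKO left of wild type. The IP3 receptor sum separates the groups under all 4 scalings, Itpr2 under 3, Itpr3 under TMM and RLE, and Orai1 under none.

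All 10 members together summed to 1059, 1090.1 and 1003 CPM in IPMK cKO and 879, 892 and 835 CPM in wild type, a ratio of means of 1.21 (exact permutation p = 0.1, adjusted p = 0.433). IP3 receptors, chiefly Itpr2, made up most of these sums. As CPM of counts outside Rn45s, and of all counts, the sums of the groups overlapped (exact p = 0.3 and 0.6). The STIM sum was 172 ± 46.9 CPM in IPMK cKO and 143 ± 10.8 CPM in wild type (SD, n = 3 each, exact permutation p = 0.4). The difference of 28.8 CPM was 2.37 without IPMK cKO replicate 2 but 47.3 with IPMK cKO replicate 1 left out.

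The 3′ ends of these genes shared little sequence with other annotated genes. In GENCODE M21 transcripts, none of the 50-base stretches in the last 300 bases of the coding transcripts of 9 members occurred in another gene. For Itpr1, 17 of 1049 did, all in Gm44101 on the opposite strand. Exons of Orai1, Itpr1 and Itpr3 overlap other genes on the opposite strand, and on the same strand those of Cracr2a overlap the lincRNA Gm43634 and those of Itpr3 the microRNA Mir7677. None of these overlaps, including that of Gm44101, touches the exon that ends farthest downstream in the member, although other Itpr1 transcripts end earlier. Priming within A-rich stretches can add tags to a 3′ count. The longest coding transcript of Itpr2, 11679 bases, held 5 windows of 12 bases with at least 10 A, against 0 to 3 for the other members, and their part in its high level was not tested.

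Among all genes tested, those whose levels followed the leading member of each family most closely over the 6 libraries were found by the root mean square difference of centred log2 CPM. For Itpr2 they were the acetyltransferase gene Crebbp (0.055), Arap2 (0.063) and the kinase co-chaperone Cdc37 (0.082). All 3 were picked for likeness to Itpr2 over these same 6 libraries. That they too lay above the whole wild type range in each IPMK cKO library follows largely from this choice. Crebbp, for example, was at 540.5, 409 and 426 CPM in IPMK cKO and 381, 343 and 294 CPM in wild type. For Orai1 they were the methyltransferase gene Setd1a (0.11), Zfp652 (0.13) and the antiviral adaptor Mavs (0.15), and for Stim2 they were Tsix (0.064), the peptidase gene Tpp2 (0.071) and the deubiquitinase gene Usp34 (0.076). Tsix is transcribed antisense to Xist, and without a stated strand setting their reads cannot be told apart. The measure covers 6 libraries only and is a description.

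The wider pathway did not pass as genes either. Of 81 other genes tested in 5 lists, edgeR called 0 (0% of all genes tested), 3 had an unadjusted edgeR p under 0.05, which is 3.70% against 2.56% of all genes, and 42 estimates lay above 0 and 39 below. Their median log2 fold change was +0.01. The 3 genes were Homer3, Esyt2 and Gnaq. Vdac1 stood in both the list of IP3 receptor partners and that of mitochondrial uptake and was counted once.

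Among 15 tested regulators of STIM and ORAI, 3 estimates lay above 0 and 12 below, with a median log2 fold change of −0.23. Esyt2, an extended synaptotagmin that tethers the endoplasmic reticulum to the plasma membrane, was at 53.9, 79.7 and 62.0 CPM in IPMK cKO and 115, 121 and 105 CPM in wild type. Its log2 fold change was −0.80 (SE 0.32, edgeR unadjusted p = 0.0293 and adjusted p = 0.9999). Tmx1, a thiol oxidoreductase of the endoplasmic reticulum, was at 71.4 ± 7.29 CPM in IPMK cKO and 110 ± 14.9 CPM in wild type (−0.62, SE 0.31). Esyt2 and Tmx1, 2 of the 15, lay below the wild type range in all IPMK cKO libraries, which was so for 5.66% of all genes tested. The calcium-activated potassium channel Kcnn4, which keeps the driving force for calcium entry, was at 613, 326 and 271 CPM in IPMK cKO and 302, 302 and 353 CPM in wild type. Its log2 fold change was +0.34 (SE 0.33), and −0.10 without IPMK cKO replicate 1. Tmem203 had +0.98 (SE 1.30). Without IPMK cKO replicate 1, 6 of the 15 estimates lay above 0 (median −0.21), and without wild type replicate 1, 5 did (median −0.17).

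Of 24 tested partners of IP3 receptors, 14 estimates lay above 0 and 10 below, with a median of +0.10. Homer3, a scaffold protein that binds IP3 receptors, was at 68.2, 36.1 and 28.9 CPM in IPMK cKO and 14.0, 14.4 and 17.2 CPM in wild type, without overlap and highest in IPMK cKO replicate 1. Its log2 fold change was +1.55 (SE 0.54, edgeR unadjusted p = 0.016 and adjusted p = 0.9999), and +1.09 without IPMK cKO replicate 1. Of the 24 partners, 2, Homer3 among them, lay above the wild type range in all IPMK cKO libraries, against 4.74% of all genes tested. Rnf170, a ubiquitin ligase that marks IP3 receptors for degradation, was at 59.1 ± 32.8 CPM in IPMK cKO and 26.1 ± 13.4 CPM in wild type (+1.18, SE 0.58, and +0.69 without IPMK cKO replicate 1). The mitochondrial chaperone Hspa9 and the scaffold gene Homer1 had −0.52 (SE 0.47) and −0.90 (SE 0.95).

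The 14 tested genes of phospholipase C and IP3 supply had 8 estimates above 0 and 6 below (median +0.07). Gnaq, a G protein subunit that activates phospholipase C beta, was at 9.99, 48.9 and 24.6 CPM in IPMK cKO and 86.0, 74.6 and 43.7 CPM in wild type. Its log2 fold change was −1.29 (SE 0.57, edgeR unadjusted p = 0.045 and adjusted p = 0.9999). IPMK cKO replicate 2 lay inside the wild type range. The phospholipases Plcb4 and Plcb2 had −1.23 (SE 0.83) and +0.77 (SE 0.52), and the receptor-proximal kinase Lck +0.27 (SE 0.30). Without IPMK cKO replicate 1, Plcb2 had +0.16 and Lck −0.043. Mitochondrial calcium uptake, 12 genes, was evenly split at 6 above and 6 below 0 (median −0.02), with Mcur1 (+0.89, SE 0.53), Smdt1 (+0.77, SE 0.59), Slc8b1 (−1.75, SE 1.65) and Letm1 (−0.26, SE 0.37) at the smallest p-values. Mcur1 and Smdt1 were highest in IPMK cKO replicate 1, at 140 and 157 CPM, and their other IPMK cKO libraries lay within the wild type range. Without that library their estimates were +0.020 and −0.16. The list of 17 genes of the endoplasmic reticulum calcium store, which also holds the pumps of other membranes Atp2c1, Atp2b1 and Atp2b4, had 11 above and 6 below (median +0.05). The pump gene Atp2a3 was at 545.7, 177 and 159 CPM in IPMK cKO and 160.4, 193 and 137 CPM in wild type (+0.85, SE 0.45), and +0.033 without IPMK cKO replicate 1. The chaperones Canx and Hsp90b1 had +0.48 (SE 0.29) and −0.44 (SE 0.32), and the plasma membrane pump Atp2b4 −0.71 (SE 0.41). Without IPMK cKO replicate 1, 7 of these 17 lay above 0, with a median of −0.23.

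**Figure D4:**
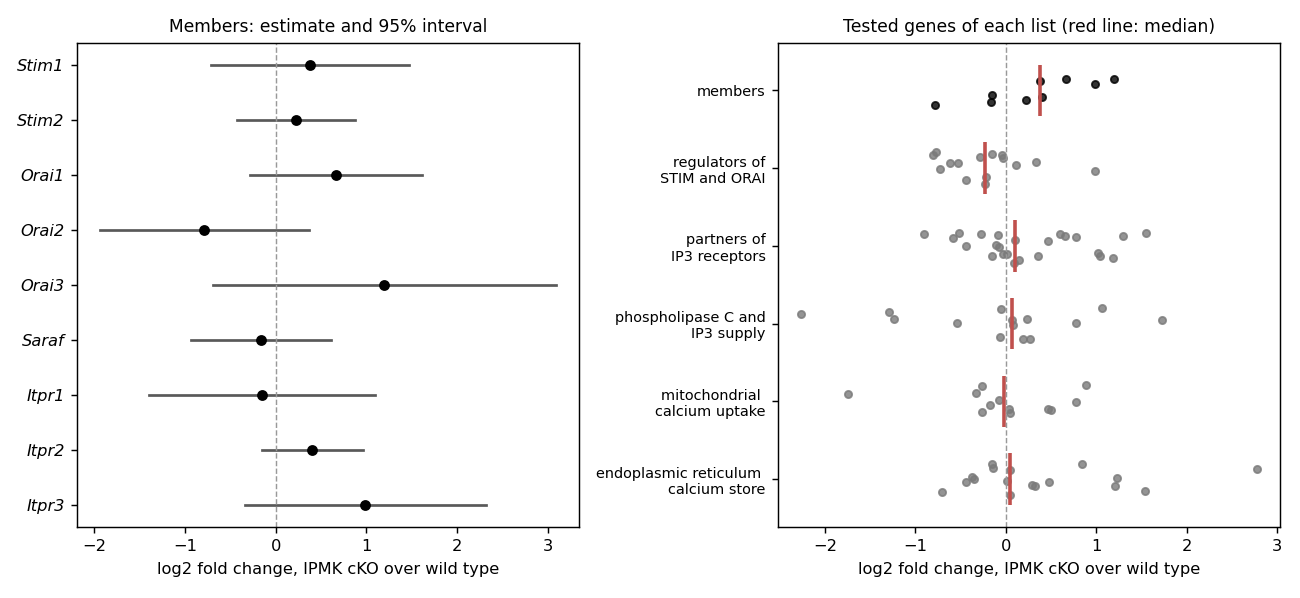
Left, log2 fold change of IPMK cKO over wild type for the 9 detected members with the 95% interval of edgeR's model, every interval including 0. Right, the estimates of all tested genes in the members' list and the 5 pathway lists, with a red line at each median, from −0.23 to +0.38.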

How the data were processed

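RNA of 6 libraries was counted by the authors as whole-number counts per gene symbol, deposited without normalization, per the file headers and the values. The submitters' processing notes name Bowtie2, edgeR, mm10 and hg19 without their roles, and the counter, annotation and strand setting are not given there.

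Groups came from the genotype labels. Counts were tested with edgeR 4.0.16 (R 4.3.3; TMM, filterByExpr with a minimum of 10 counts, quasi-likelihood test, Benjamini-Hochberg adjustment over the 10475 genes tested, threshold 0.05). The SE is the estimate over the square root of F. Exact two-sided permutation tests compared single values per library. The code was tested on simulated data. Alternatives were DESeq2 1.42.0, limma-voom (limma 3.58.1), other scalings and filters, the replicate block and left-out libraries. Coordinates are from GENCODE M21, which held all 10 symbols and 96.0% of genes tested.

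All members are described, and of each pathway list the 2 genes with the smallest p in each direction. Members, lists and this rule were chosen with earlier results of these data known. Markers with no count were named after their values were seen.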

Additional observations from a re-analysis of the deposited data

How the results depend on the processing

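No member was called under any of the 14 alternatives of the gene-wise test, and 123 of 126 member estimates kept their sign. The exceptions came from leaving out 1 library: Stim1 ranged from −0.15 to +0.71, Saraf from −0.37 to +0.11 and Itpr1 from −0.81 to +0.25. DESeq2 called 4 genes, none a member, and leaving out 1 library gave 0 to 1, the 1 being called when IPMK cKO replicate 1 was left out, and 1 was called with both libraries numbered 1 left out. The difference in Stim1 share (+0.58 percentage points) ranged from −3.18 to +5.45 over left-out libraries, that in Itpr2 share (−0.07) from −1.68 to +2.17, and was +0.087 with counts pooled. The log2 ORAI to STIM difference (+0.16) ranged from −0.21 to +0.48, and the IP3 receptor to STIM difference (+0.17) from −0.078 to +0.41. Without IPMK cKO replicate 1 and without wild type replicate 1, chosen after the data were seen, list medians were −0.084 and +0.053 for phospholipase C and IP3 supply, +0.039 and −0.011 for mitochondrial uptake, and −0.23 and +0.10 for the endoplasmic reticulum list. Of 20 named pathway genes, 15 kept their sign under every alternative, a check added after the data were seen. Over left-out libraries Kcnn4 ranged from −0.10 to +0.55, Lck from −0.043 to +0.44 and Smdt1 from −0.16 to +1.24, and with both libraries numbered 1 left out Kcnn4 had −0.13, Mcur1 −0.15 and Hspa9 +0.32. The cause was not tested. The fit with the replicate number as a block called 0 genes, with estimates of +0.40 for Itpr2, +1.23 for Itpr3 and −0.74 for Orai2, and the paired Orai2 share difference of −21.8 had an exact sign-flip p of 0.25, the smallest 3 pairs allow. Deviations of same-numbered libraries correlated at 0.027 to 0.088 across genes, and those of differently numbered libraries at −0.061 to −0.0011. The labels do not say whether the numbers pair samples, so the main test used the genotype only. Cracr2a had no count in any library and could not be compared, and the reason for this was not tested.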
